A study of Homo sapiens with 24 samples.

Results

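The regions described here are places in the HepG2 transcriptome where an m6A summit was listed in the control, wild-type and D312A lines and in no library of the R298P line. They were chosen by measured values, namely the presence or absence of summits in the 12 deposited summit lists. Neighbouring summits within 100 nt of each other, from any of the 12 lists, were joined into a region. A region was kept where at least 4 of the 6 EGFP and WT libraries, at least 2 of the 3 D312A libraries and 0 of the 3 R298P libraries held a summit. This left 295 regions of 34313 in all. They were 3.70% of the 7967 regions that met the conditions on EGFP, WT and D312A. The rule sets absence from R298P for each region but not this share, which was not tested. It ran from 1.78% to 8.66% when libraries were left out.

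The study asked how substitutions of METTL14 found in cancer change which RNA sites are methylated. All 4 lines were HepG2, an established liver cancer cell line, transduced with integrating lentivirus and selected with puromycin. One line expressed METTL14 with the substitution R298P, one METTL14 with D312A, one wild-type METTL14 (WT) and one EGFP. Per the labels there were 3 biological replicates of each line, and the 24 samples were 12 libraries precipitated with an anti-m6A antibody and 12 input libraries. The labels name no removal of the cell's own METTL14 in any line, and its part in these lists was not tested.

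N6-methyladenosine is the most common internal modification of mRNA. It is written as the RNA is transcribed by a complex in which METTL3 is the catalytic subunit and METTL14 the partner that holds the RNA, mostly at adenosines within a short motif with GGAC at its core, near stop codons and in 3′ untranslated regions. Reader proteins bound to the mark alter splicing, translation and decay of the mRNA, and in liver cells the mark is found on transcripts of metabolism, signalling and growth. In the assay used here RNA was broken into fragments of about 120 nt and precipitated with an antibody, so a summit marks the centre of a pile of fragments and not a single adenosine.

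For 1 of the 295 regions the letters of the genome were contained in the sequence tables used here. It is shown as a single example and does not stand for the other regions, at which motifs were not searched. The region lies in the span of ZNF275, a zinc finger gene, at chrX:153351988-153352008 (hg38), near the 3′ end of the span. The stretch below, with GGAC in capitals, is the plus strand at chrX:153351984-153352013 from the RefSeq promoter table (GRCh38.p14), since it also falls in the window around the start of a lncRNA gene, LOC105373378.

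ZNF275 region: ctgacagaacatgatGGACcacGGACacca

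GGAC was found at 2 places in these 30 bases, counted from 16 and from 23, and on the opposite strand at 0. GGAT, which differs in its last letter, was found at 0 places on either strand. In the same 30 positions of all 35116 RefSeq promoter windows, 9.94% held GGAC on the given strand and 6.89% held GGAT. Those windows lie around gene starts and were not chosen for m6A, so these shares are no background for the regions. This region was present in 2 D312A, 3 WT and 3 EGFP libraries. A summit of R298P replicate 3 lay 175 nt from it.

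The value deposited with each summit is a −log10 p or q value and cannot be compared between lists. It was therefore turned into a percentile within its own list, where 100 is the highest value. The lists held between 11590 and 13721 summits in R298P, 8669 and 12357 in D312A, 12620 and 15114 in WT, and 12665 and 15373 in EGFP. The number of reads behind them is unknown. A region absent from a list may hold signal below the authors' threshold, and less methylation, less RNA of the gene and fewer reads cannot be told apart in these lists. The METTL14 span held 10, 6 and 9 summits in R298P replicates 1 to 3, 9, 9 and 3 in D312A, 11, 9 and 7 in WT, and 1 in each EGFP library. Hepatocyte markers carried summits in 12 of 13 cases, with APOC3 at 0, and markers of fibroblasts, leukocytes and endothelium in 1, 2 and 2 of 4 each.

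Of the 295 regions, 23 were present in all 9 libraries of D312A, WT and EGFP, 79 in 8, 93 in 7 and 100 in 6. D312A replicates 1, 2 and 3 held 225, 170 and 251 of them, WT replicates 236, 249 and 254, and EGFP replicates 239, 240 and 226. D312A replicate 2, the shortest list, held the fewest. Just outside the rule, 115 further regions had 3 of the 6 EGFP and WT libraries, 423 had 1 D312A library, and 848 had 1 R298P library. The 112 regions with 4 and the 239 with 2 D312A libraries lay just inside it. The single R298P library was replicate 1 for 247 of these 848 regions, replicate 2 for 206 and replicate 3 for 395.

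The count depends on single libraries. The rule asks for absence from every R298P list, and the numbers of libraries needed for presence stayed the same when a library was left out. Without R298P replicate 1, 2 or 3 the regions numbered 542, 501 and 690, and without D312A replicate 1, 2 or 3 they numbered 126, 181 and 100. With WT or EGFP libraries left out one at a time they numbered between 215 and 233. The exchanged rule, absence from all D312A libraries and presence in at least 2 R298P libraries, gave 234 of 7980 regions (2.93%). That count was 694, 324 and 606 without D312A replicates 1, 2 and 3, and 151, 140 and 117 without R298P replicates 1, 2 and 3. It lay between 137 and 164 when a WT or EGFP library was left out. With merging within 200 nt the counts drew close, at 219 regions missing in R298P and 214 missing in D312A.

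In every line the list of replicate 1 is named differently than those of replicates 2 and 3, and the list of R298P replicate 2 names its summits in a way the other 11 lists do not. Without replicate 1 of every line, 224 regions were missing in R298P and 379 in D312A, so the order of the counts turned round. The counts were 307 and 187 without replicate 2, and 246 and 282 without replicate 3. Within replicate 1 alone, 19.6% of the 8302 regions held by EGFP, WT and D312A were absent from R298P, and 10.9% of the 7485 held by EGFP, WT and R298P were absent from D312A. The share absent from R298P was 16.5%, and that from D312A 25.3%, in replicate 2, and both were 13.2% in replicate 3. In these shares the excess of R298P over D312A was seen in replicate 1 and not in the others. The D312A list of replicate 2 was the shortest of all, and list length and replicate cannot be told apart there.

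The same rule turned on each line in turn asked for absence from all 3 of its libraries and presence in at least 2 libraries of each other line. It gave 261 regions for R298P (3.41% of 7655), 180 for D312A (2.37% of 7595), 36 for WT (0.523% of 6878) and 55 for EGFP (0.786% of 6995). When each list was shortened to its 8669 highest summits, the length of the shortest, it gave 181 regions for R298P, 86 for D312A, 50 for WT and 70 for EGFP. Without replicate 1 of every line it gave 132 for R298P, 153 for D312A, 16 for WT and 31 for EGFP. Both substitution lines gave higher counts than WT and EGFP in these 3 settings, and the differences were not tested.

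The regions missing in R298P held summits of lower rank than the regions that R298P kept. A list holds a summit only above a threshold on its value, so a rule that asks for absence favours regions of low rank. The difference in rank was therefore not tested. Their median percentile was 36.0, 36.9 and 41.4 in D312A replicates 1 to 3, 44.0, 39.9 and 52.4 in WT, and 49.1, 46.5 and 45.3 in EGFP. At the 6824 regions held by 2 or 3 R298P libraries the medians were 67.2, 62.8 and 68.3 in D312A, 72.5, 69.7 and 72.8 in WT, and 71.9, 71.8 and 69.5 in EGFP. In each of the 9 libraries the median at the missing regions lay below that at the kept regions. Low ranks were not limited to these regions. At the regions missing in D312A and kept in R298P the medians lay between 33.1 and 43.7 in WT and EGFP, and at those missing in both lines between 33.9 and 41.6. The regions with a summit in a single R298P library had medians between 40.0 and 53.6 over the 9 libraries. With values of at least 10 required of every summit, 119 of the 295 regions were still called, and 98 with lists of equal length.

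**Figure D1:**
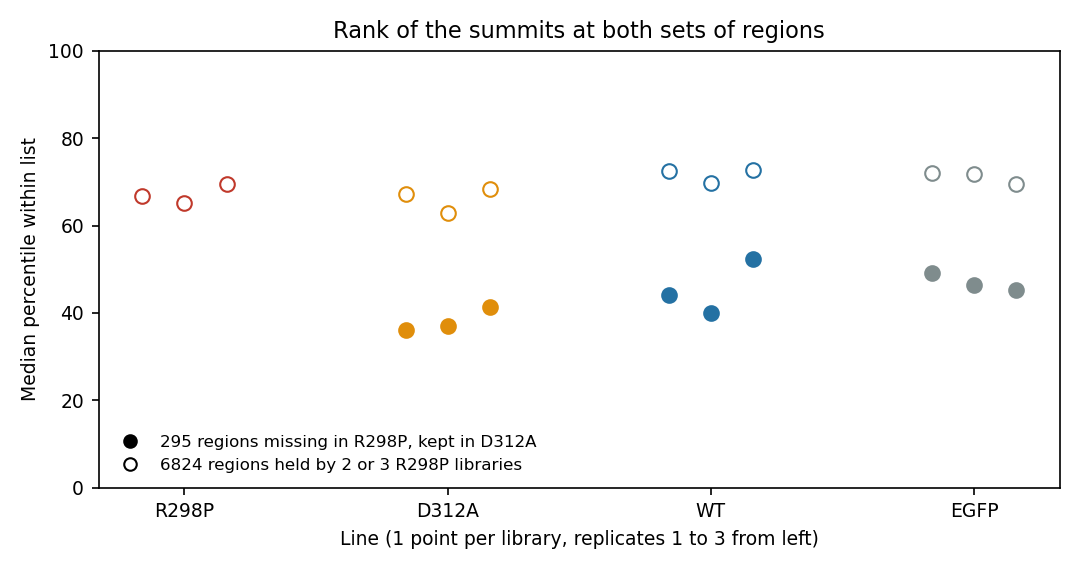
Median percentile, within its own list, of the summits at the regions missing in R298P and kept in D312A (filled points) and at the regions held by 2 or 3 R298P libraries (open points), for each of the 12 libraries grouped by line. R298P has no filled points because it holds no summit there, and the filled points of the other lines lie between 36.0 and 52.4, below all open points. A rule that asks for absence favours regions of low rank.

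Among the regions present in all 9 libraries and assigned to a gene, those in FEM1B, TBC1D16, TAF5L and MLX had the highest mean percentiles. In FEM1B, a substrate receptor of a cullin ubiquitin ligase, the region (chr15:68291081-68291196) had summits at percentiles 97.6, 94.4 and 87.9 in D312A replicates 1 to 3, 98.4, 96.7 and 96.3 in WT, and 95.9, 99.0 and 96.2 in EGFP. In TBC1D16, a Rab GTPase-activating protein, the region (chr17:79939827-79939842) had percentiles of 75.7, 97.7 and 97.4 in D312A, 93.3, 98.1 and 95.5 in WT, and 94.2, 95.1 and 95.8 in EGFP. For TAF5L, a subunit of a SAGA-type histone acetyltransferase complex, they were 71.1, 83.9 and 95.7 in D312A, 91.0, 86.0 and 98.9 in WT, and 84.7, 86.3 and 83.2 in EGFP (chr1:229594775-229594793). These 3 regions ranked at 71.1 or higher in every D312A, WT and EGFP list. Each of the 3 had an R298P summit within 200 nt, so with merging within 200 nt none of them could be called. The FEM1B region was not called with merging within 50 nt either. MLX, the partner of the glucose-sensing transcription factors MondoA and ChREBP, carried its region (chr17:42571683-42571693) at 75.1, 85.3 and 59.9 in D312A, 81.1, 95.6 and 84.2 in WT, and 84.6, 97.6 and 74.2 in EGFP. D312A replicate 3 was the lowest of these.

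Further regions present in all 9 libraries lay in genes of receptors, an adaptor and kinases. TRAF6, a ubiquitin ligase downstream of Toll-like and interleukin receptors, had percentiles of 74.8, 36.9 and 28.0 in D312A replicates 1 to 3, 76.7, 86.5 and 86.8 in WT, and 84.1, 76.9 and 91.9 in EGFP (chr11:36490372-36490424). LTBR, the lymphotoxin beta receptor, had 63.2, 70.2 and 74.3 in D312A, 78.4, 64.2 and 57.8 in WT, and 61.9, 46.9 and 80.8 in EGFP (chr12:6390912-6390951). For CCR6, a chemokine receptor, the values were 74.4, 45.0 and 54.5 in D312A, 94.9, 37.0 and 92.3 in WT, and 79.8, 35.1 and 83.9 in EGFP (chr6:167136628-167136656). At TRAF6 the D312A percentiles all lay below those of WT and EGFP, whereas at LTBR and CCR6 the 3 lines overlapped. F2RL1, a protease-activated receptor, had 23.3, 73.4 and 37.8 in D312A, 65.5, 72.6 and 82.2 in WT, and 60.3, 76.8 and 67.0 in EGFP (chr5:76834060-76834074). MARK2, a kinase of microtubules and cell polarity, had 87.1, 39.1 and 71.0 in D312A, 86.5, 44.0 and 85.5 in WT, and 97.2, 63.9 and 48.5 in EGFP (chr11:63909102-63909118). At both genes the ranges of the 3 lines overlapped. MAP3K20, a kinase of the ribotoxic stress response, ranked at 35.1, 36.9 and 44.6 in D312A, 40.0, 5.39 and 22.0 in WT, and 25.8, 11.3 and 44.7 in EGFP, so presence in all 9 lists did not require a high rank.

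Other regions of the 9 libraries lay in PODXL2, a sialomucin, MR1, which presents microbial metabolites to T cells, SNAPC5, a subunit of the complex that drives transcription of small nuclear RNA genes, and GCNT2, a glucosaminyltransferase of the I blood group antigen. Their percentiles ran between 7.52, in D312A replicate 1 at GCNT2, and 88.0, in EGFP replicate 1 at MR1. PPP1R26, a regulatory subunit of a protein phosphatase, spanned a wider range, with 57.6, 0.854 and 26.2 in D312A, 92.4, 67.9 and 29.9 in WT, and 88.9, 2.85 and 68.2 in EGFP. FBXO28, an F-box protein, ENTPD4, a Golgi nucleotidase, VIPAS39, a vesicle sorting protein, BFAR, an apoptosis regulator, and KIZ, a centrosome protein, completed the 20 regions of all 9 libraries that could be assigned to a single gene. KIZ ranked lowest in EGFP, with a highest percentile of 47.4 in D312A, 50.3 in WT and 8.97 in EGFP. In FAM117B, AAR2, NFAT5 and DNAJB9 the region was absent from D312A replicate 2 alone among these 9 libraries, and in BCL9L from WT replicate 1. AAR2 acts in assembly of the spliceosome, NFAT5 is the transcription factor of osmotic stress, DNAJB9 is a co-chaperone of the endoplasmic reticulum, and BCL9L is a coactivator of beta-catenin.

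**Figure D2:**
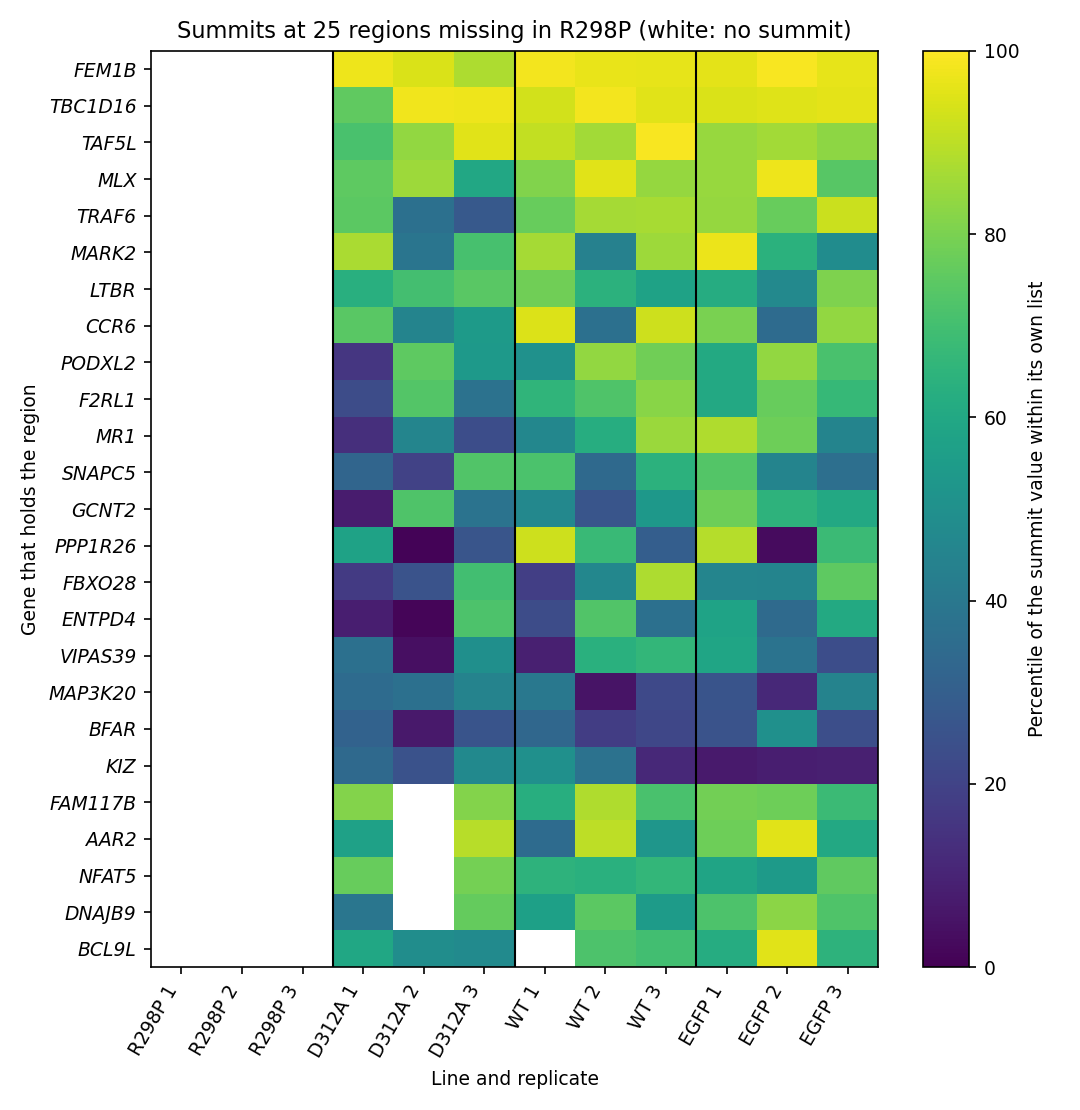
Percentile of the best summit within its own list (colour) at the 25 regions present in most of the 9 libraries of D312A, WT and EGFP and assigned to 1 gene, with a column for each library and white where a library holds no summit. The R298P columns are white by the rule, FEM1B and TBC1D16 lie above 75 in all 9 libraries, and the white cells in D312A replicate 2 belong to FAM117B, AAR2, NFAT5 and DNAJB9.

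R298P had a summit within 500 nt about as often at these regions as at the kept regions. Per R298P library, on average 40.0% of the 295 regions and 38.8% of the kept regions had a summit more than 100 and up to 500 nt away. At the 295 regions this share was 34.5% in D312A, 43.3% in WT and 42.3% in EGFP. The nearest summit of any R298P library lay at a median of 483 nt from the missing region. The lowest distances were just past the 100 nt that merging allows, and the highest was 2142048 nt at DPYD. It lay within 200 nt for 75 regions (25.4%), within 500 nt for 150 (50.8%) and beyond 1000 nt for 114 (38.6%). For the regions missing in D312A and kept in R298P the nearest D312A summit lay at a median of 629.5 nt, with 15.4% within 200 nt and 46.2% within 500 nt. For the 323 regions missing in both substitution lines the nearest R298P summit lay at a median of 1150 nt, with 16.4% within 200 nt and 39.0% within 500 nt. The differences between these shares were not tested. With merging within 200 nt, 219 regions met the rule and 205 of the 295 were still called. None of the 75 could be among them, since that merging joins their R298P summit to the region.

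**Figure D3:**
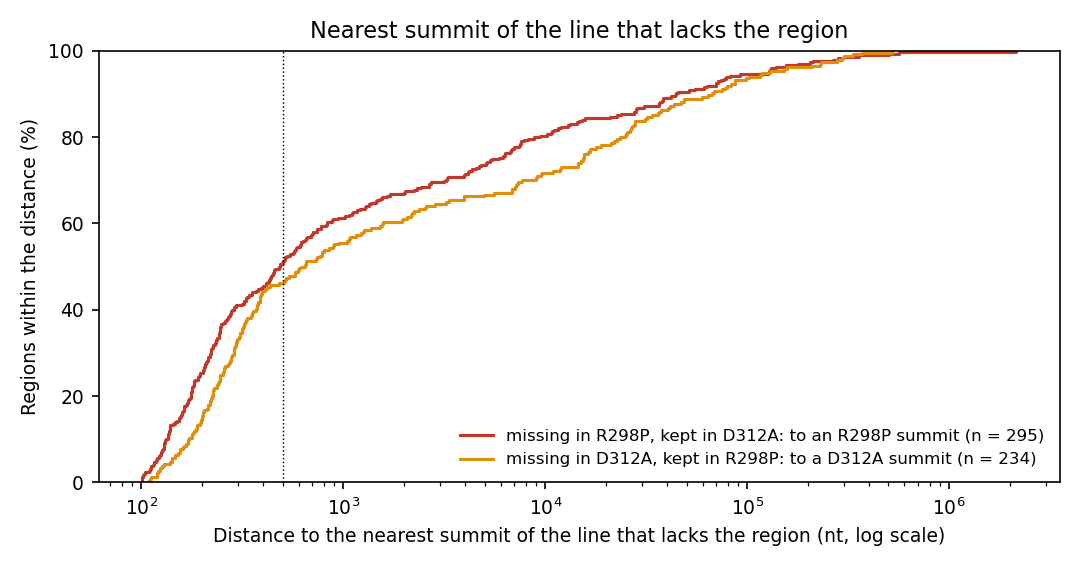
Cumulative percent of regions (vertical axis) against the distance to the nearest summit of the line that lacks the region (nt, log axis), for the regions missing in R298P and kept in D312A and for the regions missing in D312A and kept in R298P, with a dotted line at 500 nt. At 500 nt the curve for R298P reaches 50.8% and the curve for D312A 46.2%.

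Counted per library, a summit more than 100 and up to 200 nt away was found at 17.3% ± 2.71 of the 295 regions in R298P, 11.0% ± 1.71 in D312A, 14.6% ± 0.897 in WT and 14.2% ± 1.22 in EGFP (SD, n = 3 each). At the kept regions the shares were 10.9% ± 0.834 in R298P, 8.85% ± 1.29 in D312A, 11.0% ± 0.261 in WT and 11.4% ± 0.689 in EGFP. R298P replicate 2, at 14.6%, lay within the range of the WT libraries, and the other R298P libraries lay above all WT and EGFP libraries. No R298P library held a summit within the 295 regions, whereas each other library held one in 170 to 254 of them. The shares of R298P and of the other lines at the 295 regions thus describe different situations. Between 201 and 500 nt the shares at the 295 regions were 28.4% ± 4.09 in R298P and 27.3% ± 4.70 in D312A. They were 34.4% ± 1.60 in WT and 32.8% ± 2.21 in EGFP (SD, n = 3 each). At the kept regions they were 31.4% ± 2.03 in R298P and 29.1% ± 4.30 in D312A. In WT and EGFP they were 34.7% ± 1.05 and 34.6% ± 1.57 there.

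**Figure D4:**
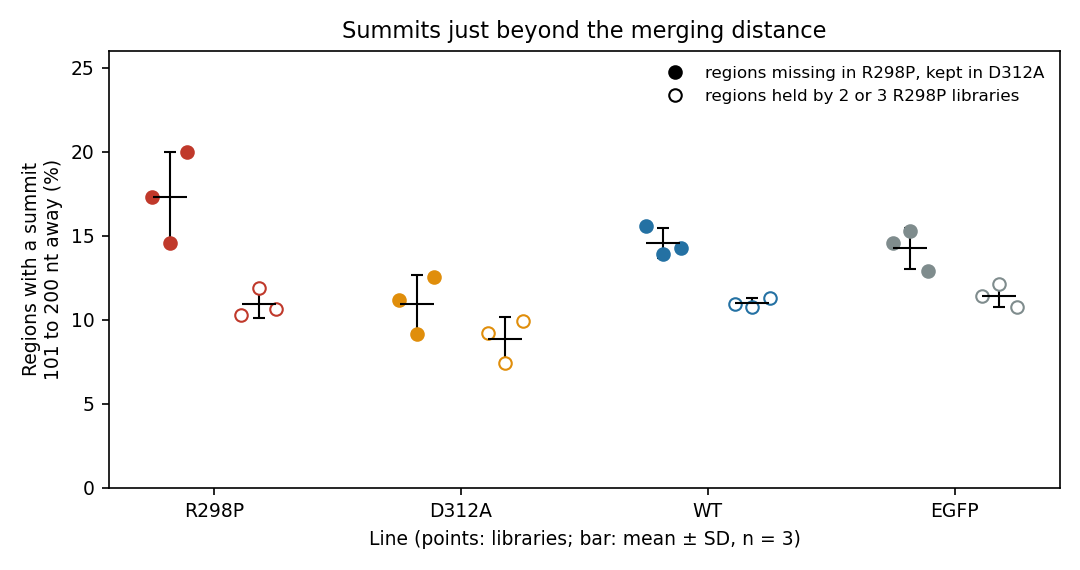
Percent of regions with a summit more than 100 and up to 200 nt away in each library, for the regions missing in R298P and kept in D312A (filled points) and those held by 2 or 3 R298P libraries (open points), with the mean and SD of 3 libraries in black. The filled R298P points lie between 14.6% and 20.0%, and the filled points of D312A lie lowest, with a mean of 11.0%.

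Among the 150 regions with an R298P summit within 500 nt, the nearest R298P summit belonged to a region found in 3 R298P libraries in 65 cases, in 2 in 36 cases and in 1 in 49 cases. That neighbouring region was held by 6 or more of the 9 other libraries in 68 cases, by 1 to 5 in 64 and by 0 in 18. It lay on the 5′ side of the missing region in 51 cases and on the 3′ side in 60, and the strand was not given for 39. In 34 cases it was held by all 3 R298P libraries and 6 or more of the 9 others.

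In 8 cases, singled out after their values were seen, the neighbour was held by all 3 R298P libraries and at most 1 of the 9 others. At FEM1B the R298P region (chr15:68290944-68290948) lay 133 nt to the 5′ side of the missing one, with percentiles of 95.9, 96.1 and 95.9 in R298P replicates 1 to 3, and 1 D312A library also held it. At TAF5L it lay 130 nt to the 5′ side (chr1:229594923-229594926), with 80.1, 83.3 and 94.9, and 0 of the other 9 libraries held it. At MARK2 it lay 209 nt to the 3′ side (chr11:63909327-63909335), with 90.2, 88.5 and 82.3. In these 3 genes the R298P libraries held one place and the WT and EGFP libraries the other, and 1 D312A library each at FEM1B and MARK2 held both. FAM117B had its R298P region 109 nt to the 3′ side, with percentiles of 60.7, 84.9 and 56.3 in R298P. BCL9L had it 262 nt away, with 84.9, 80.2 and 85.4. Further cases were in CHDH, the mitochondrial choline dehydrogenase, at 131 nt, and in a region of chromosome 7 (76075015 to 76075029) assigned to no single gene, at 135 nt.

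TBC1D16 differed from these in D312A. Its R298P region (chr17:79939658-79939689), 138 nt from the missing one, was held by 3 R298P, 2 D312A, 0 WT and 0 EGFP libraries, while the missing region was held by 0 R298P, 3 D312A, 3 WT and 3 EGFP libraries. At TRAF6 the neighbour 120 nt to the 3′ side was held by 3 R298P, 0 D312A, 1 WT and 2 EGFP libraries. At MR1, 125 nt to the 3′ side, it was held by 3 R298P, 0 D312A, 1 WT and 1 EGFP libraries. At LTBR, by contrast, the neighbour at 131 nt was held by 3 R298P, 2 D312A, 3 WT and 3 EGFP libraries, and at DNAJB9 the one at 295 nt by all 12. Of the 23 regions present in all 9 libraries, 11 had an R298P summit within 200 nt and 7 had none within 1000 nt.

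Among the leading regions, the list genes and the genes with 2 regions, the nearest R298P summits lay at BFAR, just past 100 nt, FAM117B at 109 nt, GCNT2 at 110 nt, TRAF6 at 120 nt and PODXL2 at 125 nt. The 5 farthest in that group lay at MLX, at 10189 nt, a region of RIF1, a protein of DNA repair and replication timing, at 11072 nt, a region of CEP350, a centrosomal protein, at 23705 nt, VIPAS39 at 42111 nt and PNPLA3 at 561523 nt. Over all 295 regions, 58 had no R298P summit within 10000 nt.

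The regions lay in 258 genes, 5.83% of the 4426 genes with a region that met the conditions on EGFP, WT and D312A. Of these, 8 held 2 regions each, namely AAR2, CEP350, MTF1, BRPF3, VAX2, BCL9L, RIF1 and HEMK2. R298P libraries held summits elsewhere in most of these genes. Summits in the spans of the 258 genes but outside the missing regions were counted as a share of each list. They made up 4.30% ± 0.0374 of an R298P list and 4.03% ± 0.169 of a D312A list. The shares were 4.17% ± 0.156 of a WT list and 4.17% ± 0.0646 of an EGFP list (SD, n = 3 each). In FEM1B, for example, the R298P libraries held 3, 4 and 4 other summits, the D312A libraries 4, 3 and 4, the WT libraries 4, 3 and 3, and the EGFP libraries 3, 3 and 4. FEM1B thus carried other summits in every library.

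In 44 of the 258 genes (17.1%) no R298P library held a summit anywhere in the span. Among the 202 genes with a region missing in D312A and kept in R298P, 45 (22.3%) held no D312A summit. MLX, SNAPC5 and VIPAS39 were the genes of this kind whose region was present in all 9 other libraries. Outside that region, MLX held 1 summit in WT replicate 2 and 1 in EGFP replicate 3, SNAPC5 held 1 in WT replicate 1 and 1 in EGFP replicate 1, and VIPAS39 held 0 in all 12 libraries. PNPLA3, a lipid droplet protein, had its region (chr22:43946642-43946677) at 46.1 and 65.2 in D312A replicates 1 and 3, 64.2, 43.0 and 79.4 in WT, and 37.0, 41.4 and 30.0 in EGFP, with no other summit in the span in any library. DPYD, the first enzyme of pyrimidine breakdown, BCKDHA, a subunit of branched-chain keto acid dehydrogenase, MYO5C, an unconventional myosin, and XIAP, an inhibitor of caspases, likewise had a region in 8 of the 9 libraries and no other summit. NAGS, whose product N-acetylglutamate activates the urea cycle, had its region in 7 libraries. In 26 genes the only summits lay in the regions missing in R298P.

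Most regions lay towards the 3′ end of the gene span. Of the 295 regions, 258 lay in a single protein-coding gene, 8 in a single lncRNA gene, 22 in the spans of several genes and 7 in none. Exons, introns and untranslated regions could not be told apart with the annotation used here. For 219 regions with a known strand the median relative position was 0.869 of the span, where 0 is the 5′ end and 1 the 3′ end, and it was 0.847 at the kept regions. The last 10% of the span held 99 of the 219 (45.2%) and 41.9% of the kept regions, and the first 10% held 16 (7.31%) and 8.89% of the kept regions. FAM117B (0.970), GCNT2 (0.974), MARK2 (0.973), BFAR (0.971) and VIPAS39 (0.982) lay close to the 3′ end, whereas the MTF1 region at chr1:37857464-37857552 (0.0417) and both HEMK2 regions (0.0375 and 0.0325) lay close to the 5′ end. The regions had a median width of 29 nt, between 2 and 269, against 34 nt at the kept regions.

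**Figure D5:**
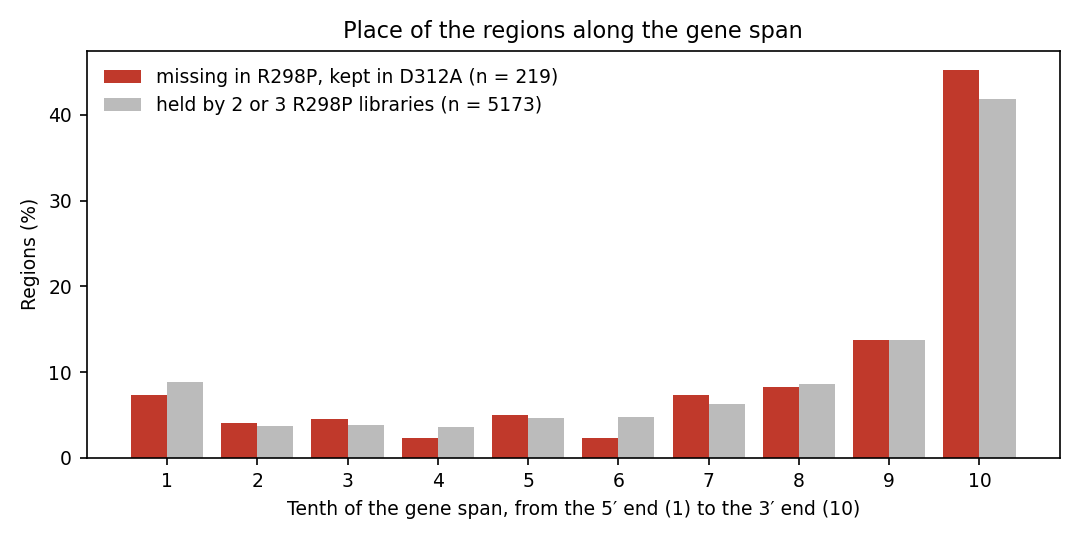
Percent of regions (vertical axis) in each 10% step of the gene span, from the 5′ end, for 219 regions missing in R298P and kept in D312A and 5173 regions held by 2 or 3 R298P libraries, both with a known strand. Both sets are highest in the last step, with 45.2% and 41.9%.

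Gene lists of liver biology, signalling and RNA methylation held 220 genes with a region that met the conditions on EGFP, WT and D312A, and 18 of them (8.18%) held a missing region, where all genes gave 5.83%. The m6A writer complex had 0 of 6 genes and insulin, AKT and mTOR signalling 0 of 14. Among readers and related proteins PRRC2A, an m6A-binding protein, was 1 of 9. Its region was held by 2 D312A, 2 WT and 2 EGFP libraries, at percentiles between 13.7 and 43.5.

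Liver identity was represented by HNF4A and FOXA2, 2 of 17 transcription factors, and by AFP and TF, 2 of 12 secreted proteins. FOXA2, a pioneer factor of endoderm, had its region at percentiles of 8.68 and 36.5 in D312A replicates 1 and 3, 34.8, 25.4 and 45.0 in WT, and 17.3, 38.5 and 72.7 in EGFP. HNF4A, a nuclear receptor of hepatocytes, had its region (chr20:44431310-44431320) in 2 D312A, 1 WT and 3 EGFP libraries. The nearest R298P summit lay 176 nt away at FOXA2 and 195 nt away at HNF4A, each in a neighbouring region held by 1 R298P library. The FOXA2 neighbour was also held by 0 D312A, 3 WT and 3 EGFP libraries, and the HNF4A neighbour by 0, 1 and 1. Within 500 nt, 2 R298P libraries held a summit at FOXA2 and 3 at HNF4A. AFP, the fetal serum protein alpha-fetoprotein, had percentiles of 60.6 and 64.1 in D312A replicates 1 and 2, 65.4 and 53.0 in WT replicates 1 and 3, and 48.6 and 59.0 in EGFP replicates 1 and 3. TF, transferrin, had 1.73 and 72.8 in D312A replicates 1 and 2, 6.03 and 36.8 in WT replicates 1 and 2, and 9.10 and 49.7 in EGFP replicates 1 and 3. The ranges of the 3 lines overlapped at TF. With merging within 200 nt the FOXA2 and HNF4A regions could not be called, since an R298P summit then joined each. Neither was called with lists of equal length, with values of at least 10 or without replicate 1. The TF region was called with merging within 200 nt and under none of the other alternatives of this kind, merging within 50 nt included, and the AFP region was not called without replicate 1.

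Inhibitors and adaptors of signalling contributed SPRY4 and DUSP16, feedback inhibitors of receptor tyrosine kinases and of MAP kinases (2 of 12), and TRAF6 and LTBR (2 of 13). DUSP16 was held by 8 libraries, at 73.2 and 65.4 in D312A replicates 2 and 3, 44.2, 76.7 and 66.5 in WT, and 23.2, 69.0 and 86.3 in EGFP. SPRY4 was held by 6 libraries, none above 36.5. BCL9L and AMER1, a coactivator and an inhibitor of the Wnt pathway, were 2 of 22, and TEAD1, the transcription factor of the Hippo pathway, was 1 of 12. AMER1 had its region (chrX:64192255-64192273) at 68.1, 60.6 and 40.9 in D312A, 73.9 and 45.2 in WT replicates 1 and 3, and 72.7 and 85.5 in EGFP replicates 1 and 2. The remaining list genes were PNPLA3 (1 of 11 in lipid metabolism), MLX (1 of 20 in the list of MYC, KLF and immediate early factors), CREBBP (1 of 22 among histone modifiers), MKI67 (1 of 7 among cell cycle proteins), USP5 (1 of 25 among ubiquitin-specific proteases) and TOB2 (1 of 18 among splicing, deadenylation and microRNA factors). CREBBP, a histone acetyltransferase, was held at 53.6 and 52.3 in D312A replicates 1 and 3, 67.8 and 57.2 in WT replicates 1 and 3, and 55.1, 92.7 and 77.6 in EGFP. Its span held 6, 6 and 4 other summits in R298P, 5, 5 and 6 in D312A, 3, 6 and 3 in WT, and 3, 3 and 6 in EGFP. The MKI67 span held 7, 6 and 8 other summits in R298P, 10, 6 and 8 in D312A, 11, 11 and 12 in WT, and 8, 10 and 10 in EGFP. The R298P and D312A counts lay below every WT library and overlapped those of EGFP, and the lists differ in length. The SPRY4, TEAD1, MKI67 and USP5 regions were not called with lists of equal length, values of at least 10 or without replicate 1. Those of PRRC2A and TOB2 were not called with lists of equal length or values of at least 10. Those of PNPLA3, AMER1 and CREBBP were not called without replicate 1. With merging within 200 nt those of CREBBP, DUSP16, TRAF6 and LTBR were not called. The MLX region was called under each of these alternatives.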

How the data were processed

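The authors deposited 1 list of summits for each of the 12 precipitated libraries of HepG2 lines expressing METTL14 R298P, METTL14 D312A, METTL14 WT or EGFP, with 3 replicates each, and groups were taken from the sample titles. Per the submitters' processing notes, the tools included Trim Galore 0.4.4, STAR 2.7.9a and MACS2 2.1.2, with build hg38. The value in the deposited lists was read from its range as a −log10 p-value or q-value; which of them it is, the threshold, the settings and the input library are not stated in the labels or lists. The lowest value of each of the 12 lists lay between 5.00 and 5.03. Lists were deposited per library and not pooled, and read depth is unknown, so no counting interval on reads could be set.

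Summits were merged and the rule applied with pandas 2.3.3 in Python 3.11.15. Percentiles were ranks of the value within a list. A region was given the name of the protein-coding gene in RefSeq (GRCh38.p14) that spans it, where there was only 1, or else that of a lone lncRNA gene, with strand from the promoter table. The scripts were tested on simulated lists with known regions. Named genes were the 25 assigned regions present in most of the 9 libraries (ties by mean percentile), list genes with a region, and genes with 2 regions; further genes without an R298P summit, MTF1 and HEMK2 positions and CHDH were chosen after their values were seen. The regions and the gene lists were chosen with earlier results of these data known. No test was run on the regions, since the rule used all 12 lists. A table of input expression was not used, because its gene identifiers could not be paired with symbols, and 18 of its columns could not be matched to samples through the labels. Alternatives were other merging distances, lists of equal length, a higher value threshold, stricter presence and left-out libraries.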

Additional observations from a re-analysis of the deposited data

How the results depend on the processing

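No paired analysis was possible because the results come from no test; values within each replicate number are given as shares above. The 295 regions numbered 333 with merging within 50 nt, 219 within 200 nt, 233 with lists of equal length, 262 with values of at least 10, and 23 when all 6 EGFP and WT and all 3 D312A libraries were required. The share missing of eligible regions, 3.70%, was 4.41%, 2.80%, 4.25%, 4.48% and 0.548% in the same order. The share with an R298P summit within 500 nt, 50.8%, was 61.6% with merging within 50 nt, 30.6% within 200 nt and 69.6% under the strict rule, and 25.4% and 61.4% with distances of 200 and 1000 nt. The median percentile over all member summits, 43.9, was 63.4 under the strict rule. The median position, 0.869, was 0.889, 0.892, 0.854 and 0.913 with merging within 50 and 200 nt, lists of equal length and the strict rule. The share missing in D312A and kept in R298P, 2.93%, was 1.97% with lists of equal length and 0.217% under the strict rule.

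Without single libraries or replicate numbers, the ranges were 100 to 690 regions, 1.78% to 8.66% missing, 43.7% to 61.1% within 500 nt, median percentiles of 41.9 to 48.9, median positions of 0.840 to 0.895, and 117 to 694 regions missing in D312A. Fewer libraries make the rule easier or harder by construction, and merging within 200 nt excludes any region with an R298P summit that close. Of the 295 regions, 267, 205, 98, 119 and 114 were still called with merging within 50 nt, within 200 nt, with lists of equal length, with values of at least 10 and without replicate 1. Of the 25 leading regions these were 24, 13, 20, 20 and 21. The exchanged rule, the rule applied to each line and each replicate number alone were chosen after the data were examined. The planned input expression of these genes and motif search at all regions were not run, since no genome sequence and no gene names for the table were used here.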
